A study of Mus musculus with 8 samples.

Results

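Among the epithelial cells of the mouse tongue epithelium profiled here, a small group carried transcripts of salivary gland and duct genes, and these cells are described below as gland-rule cells. A cell was counted as one when it was epithelial and held at least 1 transcript of at least 4 of the 8 genes Wfdc18, Msln, Psca, Dmbt1, Tspan1, Cxcl17, Krt7 and 2300002M23Rik. Transcripts were counted as unique molecular identifiers (UMIs), the barcodes that mark single captured molecules. Epithelial cells were those with 1000 to 5500 genes detected, at most 30000 UMIs, at most 7% mitochondrial UMIs, at least 1 Epcam UMI and no Ptprc UMI. Of 42550 barcodes in 8 libraries, 25199 passed the limits on genes, UMIs and mitochondrial share, 10343 of those were epithelial, and 134 of those met the rule. The comparison cells were the 10058 epithelial cells with at most 1 of the 8 genes, called other epithelial cells here, and 151 cells with 2 or 3 of the genes were set aside. The members were chosen by these 8 genes in the same cells, so every contrast between gland-rule and other epithelial cells at the level of a whole class is a description and carries no test.

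The libraries came from tongue epithelium 15 days after transgene induction, with 2 libraries in each of 4 groups. All mice carried Krt14-CreERT and LSL-rtTA, and per the study's methods an H2B-GFP reporter, and all received tamoxifen in the tongue and doxycycline chow. The N mice carried no further transgene, E mice carried tetON_E6-E7, the E6 and E7 oncogenes of human papillomavirus 16, Y mice carried tetON_YAP1S127A, a YAP1 that resists inhibitory phosphorylation, and EY mice carried both. Viable cells were sorted without selection for the reporter, so a cell in a Y, E or EY library is not known to have switched its transgene on. The Cre is driven by the Krt14 promoter, which is active in basal cells of stratified epithelium, and this limits which cells could recombine. The title of library N2 names 2 numbers where the others name 1, and whether it pools animals is not stated in the labels.

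The tongue holds minor salivary glands, whose acini secrete serous or mucous fluid and whose ducts carry it to the surface. Duct cells are simple epithelial cells, marked by keratins 8, 18 and 19 and by claudins, and they add antimicrobial proteins such as lactoferrin and lysozyme to saliva and pass immunoglobulin A across through the polymeric immunoglobulin receptor. The covering epithelium is instead stratified, with basal cells that express keratins 5 and 14 and divide, and upper layers that express keratins 4 and 13. YAP is a transcriptional co-activator held in check by the Hippo kinases, and it is linked to the growth of epithelial progenitors.

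The whole libraries held 46483469 to 102427359 UMIs, and no barcode of a gland-rule cell was shared between libraries. The median gland-rule cell held 6644 to 19666 UMIs per library, against 13068 to 24161 in other epithelial cells. N1 gave 33 gland-rule cells, N2 gave 38, E1 gave 34, E2 gave 9, Y1 gave 8, Y2 gave 0, EY1 gave 4 and EY2 gave 8. N1, N2 and E1 therefore supplied 105 of the 134 cells, the YAP libraries together supplied 20, and Y2 has no level to report. The doublet caller Scrublet marked 125 of 25199 cells and 0 of the 134, but at 0.496% of all cells it did not work as a caller, so doublets were not removed.

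Each of the 8 genes of the rule was found in 40 to 126 of the 134 cells and in 0.0298% to 4.52% of other epithelial cells, which is what the rule selects. Coordinates here and below are GRCm38 gene bounds from GENCODE vM21, and levels are CPM, each gene's UMIs summed over a class of cells within a library and scaled to the same total for every class and library. Krt7, a keratin of simple and ductal epithelium (chr15:101411043-101430313, plus strand), was found in 126 cells. Wfdc18, which encodes a secreted whey acidic protein domain protein (chr11:83709015-83711348, plus strand), was found in 112 cells and was the most abundant. Its level was 22120.1 (N1) and 63244 (N2) CPM for N, 59392 (E1) and 8860.2 (E2) for E, 196613 (Y1) for Y, and 244759 (EY1) and 147761 (EY2) for EY. The 3 YAP libraries were above the 4 others, and E2 was lowest. These levels rest largely on single cells, since 1 cell held 13129 of the 21548 UMIs in Y1, 10647 of 18411 in EY1 and 4258 of 10555 in EY2. In the others the top cell held 2336 of 8441 (N1), 5754 of 32537 (N2), 4266 of 22770 (E1) and 628 of 1093 (E2). In 1 cell of EY2 Wfdc18 supplied 49.4% of all UMIs. The epithelial chemokine Cxcl17 (chr7:25400053-25412886, minus strand) was found in 106 cells, the tetraspanin Tspan1 (chr4:116161869-116167601, minus strand) in 90 and mesothelin, Msln (chr17:25748613-25754378, minus strand), in 81. The uncharacterised 2300002M23Rik (chr17:35567450-35568952, plus strand) was found in 69 cells, the mucosal scavenger receptor Dmbt1 (chr7:131032053-131121630, plus strand) in 56 and the surface antigen Psca (chr15:74714839-74717069, plus strand) in 40.

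The 8 genes were not all found in the same cells. Every cell had to hold at least 4 of them, and that condition itself shapes how often pairs occur together. The counts of pairs are therefore a description of the chosen cells only. Psca and Dmbt1 were found together in only 5 cells, with 35 cells holding Psca without Dmbt1 and 51 holding Dmbt1 without Psca. Dmbt1 was accompanied by Cxcl17 in 55 of its 56 cells and by Wfdc18 in 55, whereas Psca was accompanied by 2300002M23Rik in 34 of its 40. Exactly 4 of the genes were held by 43 cells, 5 by 51, and 6 to 8 by 40. Just outside the limit, 37 epithelial cells held 3 of the genes and 114 held 2. The lactoferrin gene Ltf, which the rule did not use, stood at 215 CPM in cells with 2 rule genes, 1606 with 3, 6489 with 4, 9228 with 5 and 23599.9 with 6 to 8. Krt14 stood at 7003, 8346, 9358, 5423 and 1152 CPM in the same order. The level of Ltf thus climbed across the limit in steps, and Krt14 was lower only in cells with 5 or more of the genes.

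Against other epithelial cells of the same libraries, gland-rule cells were marked by secreted defence proteins and simple keratins. The 25 genes named here as higher and the 10 named as lower had the largest median log2 ratios over N1, N2 and E1, the libraries with at least 20 of the cells, with 5 CPM added to both levels. Ltf, the iron-binding antimicrobial protein of secretions (chr9:111019271-111042767, plus strand), led them. Its level was 10011 (N1) and 19535 (N2) CPM for N, 8299.7 (E1) and 20201 (E2) for E, 10155 (Y1) for Y, and 9705 (EY1) and 16183 (EY2) for EY, and at most 8.92 CPM in other epithelial cells of any library. Every library with gland-rule cells was thus far above every library's other epithelial cells, and the median log2 ratio was 10.13. Genes were counted at a mean of 10 CPM or more over N1, N2 and E1 in either class, so some passed through their gland-rule level alone. Of 8653 such genes, 754 were at least 2-fold higher in gland-rule cells in all 3 libraries, which is 8.71%. Another 285 were at least 2-fold lower, which is 3.29%.

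Several of the genes named as higher encode secreted antimicrobial proteins or the receptors and lectins of mucosal surfaces. Lyz2, a lysozyme that cleaves bacterial cell walls, was at 3270.4 (N1) and 799 (N2) CPM for N, 2368 (E1) and 1710.4 (E2) for E, 5694 (Y1) for Y, and 4480.1 (EY1) and 2169.9 (EY2) for EY. All 7 libraries were above the highest level in other epithelial cells, 19.3 CPM, with N2 lowest and Y1 highest. Pglyrp1, a peptidoglycan recognition protein, had a median log2 ratio of 6.63, and Wfdc12, an antibacterial whey acidic protein, one of 6.58. Lcn2, which sequesters bacterial siderophores, had a ratio of 6.13, with levels of 26.6 to 1856 CPM that overlapped the 0.272 to 103 CPM of other epithelial cells. Pigr, the polymeric immunoglobulin receptor, ran at 65.2 to 762 CPM and at no more than 0.0972 CPM in other epithelial cells. Gp2, a glycoprotein that binds bacterial fimbriae, had a ratio of 5.78, and Ceacam1, an adhesion receptor, one of 5.79. In the list of secreted defence proteins, 7 of the 10 genes at 10 CPM or more were at least 2-fold higher in all 3 libraries and 0 were lower, and 6 of the 20 listed had no UMI in any gland-rule cell. The median log2 ratio of that list was 5.33, beside 0.01 over all genes.

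**Figure D1:**
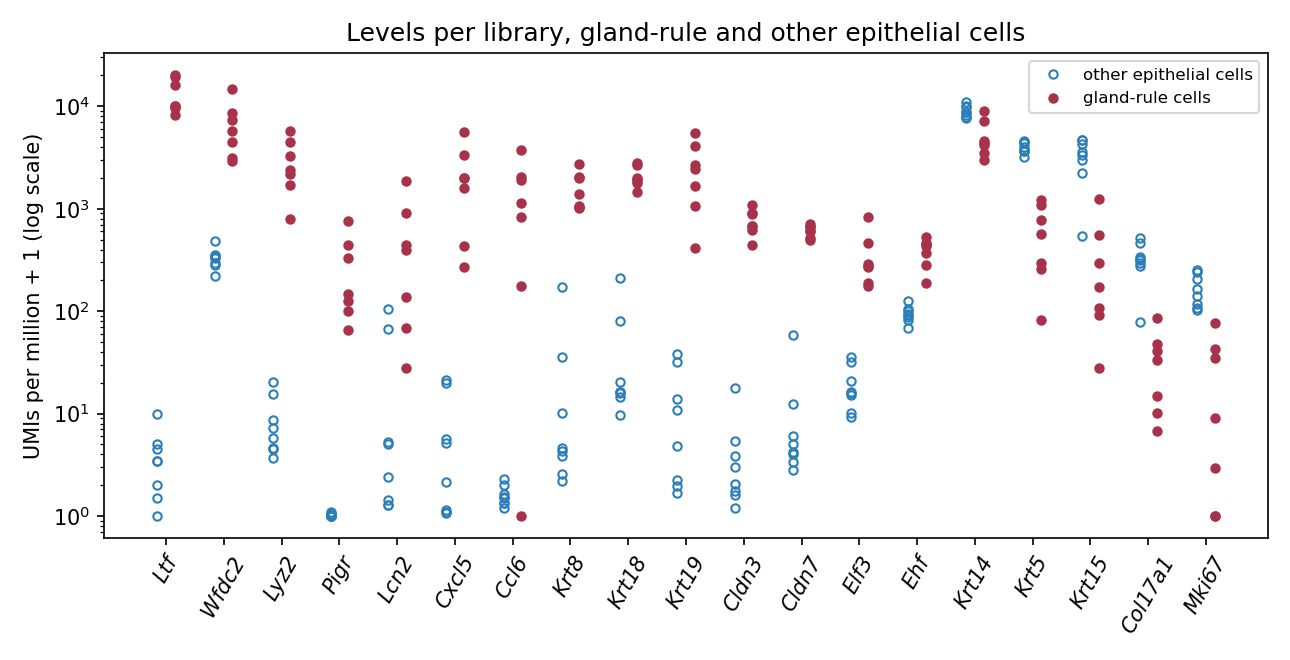
Level of 19 genes in CPM plus 1, on a log scale, in gland-rule cells (filled points, 7 libraries) and other epithelial cells (open points, 8 libraries), 1 point per library. Ltf ran from 8300 to 20201 CPM in gland-rule cells and to 8.92 CPM at most in other epithelial cells, whereas Krt5, Krt15 and Col17a1 lay mostly lower in gland-rule cells.

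Simple epithelial structure genes moved together. Krt8 was at 1399 (N1) and 2712 (N2) CPM for N, 2032 (E1) and 1013 (E2) for E, 1980.0 (Y1) for Y, and 1037 (EY1) and 1064 (EY2) for EY in gland-rule cells and at 1.18 to 169.7 CPM in other epithelial cells. The classes did not overlap for Krt8 in any pair of libraries. The keratins Krt19 (median log2 ratio 8.20), Krt8 (7.58) and Krt18 (6.85) and the tight junction claudins Cldn3 (6.93) and Cldn7 (6.29) were all among the 25 named. The duct and simple epithelium list had 17 of 18 genes at least 2-fold higher in all 3 libraries, with a median log2 ratio of 3.89 and 0 lower. That list is independent of the rule's genes but not of the cells the rule chose. The label of gland or duct-like cells thus held for the class summed over all its cells, although the subsets below differed in it.

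Other genes of the 25 named covered signalling and the cell surface. The neutrophil chemokine Cxcl5 was at 3333 (N1) and 5573 (N2) CPM for N, 428 (E1) and 1581 (E2) for E, 1989 (Y1) for Y, and 266 (EY1) and 2002 (EY2) for EY, with at most 20.2 CPM in other epithelial cells. EY1 and E1 were lowest and N2 highest, and the classes did not overlap. Cxcl3, another neutrophil chemokine, had a median log2 ratio of 6.83 and the monocyte chemokine Ccl6 one of 7.29, with 0 UMIs of Ccl6 in E2. Nupr1, a stress-induced chromatin regulator, had a ratio of 8.15 and ran at 1559.8 to 3672 CPM. Arg1, the arginase that splits arginine to urea and ornithine, had a ratio of 5.92. Ecm1, extracellular matrix protein 1, had a ratio of 5.995, Mal, a raft protein of apical transport, one of 5.98, and Ifitm1, an interferon-induced membrane protein, one of 5.91. Lrrc26, an auxiliary subunit of the BK potassium channel, had a ratio of 5.90, Basp1, a membrane-bound signalling protein, one of 5.85, and the cornified envelope gene Cnfn one of 5.87. Dcpp1, a secreted salivary protein, had a ratio of 6.16, but 3 cells held 94.1% of its UMIs. In the list of cytokines and chemokines, 8 of 11 genes were at least 2-fold higher in all 3 libraries and 0 were lower, with a median log2 ratio of 2.69.

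Detection in single cells showed the same contrast. Ltf had at least 1 UMI in 88.1% of gland-rule cells (exact binomial 95% interval 81.3 to 93.019%), in 1.25% of other epithelial cells and in 5.86% of immune cells, which are the Ptprc-positive, Epcam-negative cells used here to show background. The median cell held 11348 UMIs in gland-rule cells, 16178 in other epithelial cells and 6530 in immune cells. After every cell was thinned to 2000 UMIs, Ltf was detected in 83.6%, 0.278% and 3.67%. Thus the order of the classes for Ltf did not depend on depth. Krt8 was found in 81.3% of gland-rule cells and 2.13% of other epithelial cells, or 73.1% and 0.805% after thinning. Agr2, a disulfide isomerase of mucin-producing cells, was found in 44.8% and 1.35%, or 24.6% and 0.298%. Cftr, the chloride channel of secretory epithelium, was found in 31.3% and 0.0696%, or 9.70% and 0.00994%. These intervals and shares cover counting error only.

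Transcription factors of glandular and barrier epithelium were higher, but less evenly. Elf3, an epithelial ETS factor, was at 173 to 835 CPM against 8.26 to 34.5 CPM in other epithelial cells, and its relative Ehf at 186 to 527 against 66.8 to 126 CPM. Sox9, a factor of gland progenitors and ducts, was found in 53.7% of gland-rule cells and 14.7% of other epithelial cells, or 20.9% and 2.78% after thinning. Of the 16 transcription factors at 10 CPM or more, 7 were at least 2-fold higher in all 3 libraries and 0 were lower, with a median log2 ratio of 1.11. The ionocyte factor Foxi1 had 0 UMIs in gland-rule cells, and Ascl3, another factor of duct ionocytes, had UMIs in E1 only.

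Serous acinar and myoepithelial genes were sparse, and mucous genes were less so. Among the serous acinar genes, 8 of the 13 in the files had no UMI in any gland-rule cell, and the water channel Aqp5 was found in 2.24% of the cells against 0.278% of other epithelial cells. The 3 serous acinar genes at 10 CPM or more were Dcpp1, Dcpp2 and Dcpp3, and 11, 5 and 7 cells respectively held them. Among mucins and mucous acinar genes 8 of 11 were at least 2-fold higher in all 3 libraries, with a median log2 ratio of 2.21. The whole mucous list summed to at most 6.72 CPM in other epithelial cells. Its 11 genes thus reached 10 CPM through the gland-rule cells alone, which largely fixed this count in advance. The gel-forming mucin Muc5b was found in 14 cells, and 1 cell of N2 held 69.4% of its UMIs. Klk1, the kallikrein of granular ducts, was found in 3.73% of gland-rule cells, 0.0895% of other epithelial cells and 0.859% of immune cells. After thinning the shares were 0.746%, 0.0199% and 0.713%, the first of them from 1 cell. All 4 striated or granular duct and ionocyte genes at 10 CPM or more were at least 2-fold higher in all 3 libraries, with a median log2 ratio of 2.20. The contractile gene Acta2 of myoepithelial cells was found in 1 cell, and the myoepithelial list summed to at most 7.86 CPM. Serous acinar and myoepithelial genes were thus detected in few cells, and the mucous count only describes genes that were kept for their gland-rule level.

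Keratinocyte and cell cycle genes were lower. Krt5, the basal keratin, was at 1079.7 (N1) and 295 (N2) CPM for N, 775 (E1) and 81.1 (E2) for E, 255 (Y1) for Y, and 572 (EY1) and 1204 (EY2) for EY in gland-rule cells and 3225 to 4546 CPM in other epithelial cells. The classes did not overlap for Krt5. Krt14 was at 4201 (N1) and 3003 (N2) CPM for N, 8975 (E1) and 4548 (E2) for E, 3495 (Y1) for Y, and 4360.5 (EY1) and 7139.6 (EY2) for EY against 7693 to 11114 CPM, so E1 reached the level of other epithelial cells and the rest were below it. Krt14 was found in 87.3% of gland-rule cells but also in 72.3% of immune cells, where its level was 364 CPM, so detection alone says little for this keratin. In the basal keratinocyte list 5 of 10 genes were at least 2-fold lower in all 3 libraries and 0 higher (median log2 ratio -1.80). The suprabasal list was divided, with 3 of 12 genes higher, 1 lower and a median of -0.45.

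The 10 genes named as lower included several of the division cycle. The linker histone Hist1h1b had the lowest median log2 ratio, -3.87, followed by the prostaglandin dehydrogenase Hpgd at -3.87, the PCNA-associated factor Pclaf at -3.67 and apolipoprotein E, Apoe, at -3.59. Next came 2610528A11Rik at -3.41, the centromere histone Cenpa at -3.40, the growth factor binding protein Igfbp5 at -3.30, the Golgi-resident protein gene Fjx1 at -3.27, and the mitotic genes Cdc20 at -3.11 and Cdca8 at -3.07. Mki67, a marker of cycling cells, was found in 8.21% of gland-rule cells, 52.8% of other epithelial cells and 16.5% of immune cells, or 2.99%, 22.8% and 8.13% after thinning. Of the G2/M list 11 of 14 genes were at least 2-fold lower in all 3 libraries (median log2 ratio -2.54), and of the G1/S list 7 of 17 (-1.25), with 0 higher in either. Gland-rule cells thus had fewer division transcripts than other epithelial cells at equal depth.

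The remaining lists differed less. Of 17 YAP target genes at 10 CPM or more, 2 were higher and 2 lower in all 3 libraries (median log2 ratio 0.82), and of 12 Hippo core genes 0 were either (0.15). Interferon-stimulated genes had 1 of 13 higher and a median of 0.43. MHC class I genes had 0 of 10 either way (0.10), MHC class II 0 of 5 (-1.84), p53 targets 0 of 8 (-0.03), and hypoxia and glycolysis genes 1 of 10 lower (-0.59). The taste bud list had 0 of 7 higher in all 3 libraries and a median of 1.86. Markers of other cells were checked as sums: immune markers reached 23.5 to 511 CPM in gland-rule cells against 29.5 to 281 in other epithelial cells, with 3 of 16 at 0 in all gland-rule cells. Fibroblast markers summed to 0 to 419.9 against 27.2 to 1244 CPM, and endothelial markers to at most 20.964 CPM with 4 of 6 at 0. Erythroid and muscle markers summed to at most 11011 CPM, in N2, where 1 cell held 5573 of the 5644 haemoglobin UMIs of that library's gland-rule cells.

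Clustering of the 134 cells alone gave 5 subsets of 44, 29, 24, 20 and 17 cells, which are numbered by size and not named as cell types. Clusters were drawn from the same transcripts, so their leading genes describe them and are not tested. Subset 1, with 44 cells, carried the most keratinocyte transcripts: Krt14 at 11999 CPM, against 1054 CPM in the other gland-rule cells, and Krt4 at 2011 against 143 CPM. Its leading gene was S100g, a calcium-binding protein of transporting epithelium, at 1288 against 12.3 CPM, followed by the steroid-metabolising Akr1c18, the protease inhibitor Spink5 and the water and glycerol channel Aqp3. Of the listed genes found in at least 20% of its cells, 6 of 10 basal and 8 of 9 suprabasal keratinocyte genes were at least 2-fold above the other gland-rule cells. Of all genes found in at least 20% of the cells of a subset, the share at least 2-fold above the other gland-rule cells was 13.4% in subset 1, 13.6% in subset 2, 6.33% in subset 3, 23.3% in subset 4 and 26.4% in subset 5, and nothing particular to a list is read from its count. It still held Ltf at 8253 CPM in 43 of 44 cells and Krt8 at 849.5 CPM. The cells of subset 1 thus carried both gland and stratified transcripts, and their median of 13637 UMIs was the highest of the 5 subsets. Whether some are doublets was not tested beyond the caller.

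Subset 2, with 29 cells, was led by Muc5b, the lectin Itln1, the trefoil peptide Tff2 and clusterin, Clu. By the same criteria it held all 9 mucous genes in at least 20% of its cells, of 14 listed, and 9 of 17 duct genes, the largest number of duct genes of any subset. Krt8 was at 4581 CPM and Krt18 at 4976 CPM, both the highest of the 5. Lcn2 reached 1788 CPM in 21 of 29 cells. Its leading mucous genes came from few cells, since 1 cell of EY2 held 76.025% of all Tff2 UMIs and 1 of N1 held 49.1% of those of Itln1. Subset 3, with 24 cells, was led by the salivary genes Dcpp1, Dcpp3 and Sbpl and held Wfdc18 at 281381 CPM and Wfdc12 at 4888 CPM. The antiprotease Slpi was found in all 24 of its cells, at 1819 CPM. By the same criteria it held all 4 serous acinar genes in at least 20% of its cells, of 13 listed, and 9 of 13 interferon-stimulated genes. A single N1 cell supplied 96.4% of the Sbpl UMIs, 98.8% of those of the lipase Lipf and 98.7% of those of Bpifb1, and the haemoglobin-rich N2 cell is also in subset 3.

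Subset 4, with 20 cells, was led by Psca at 43363 CPM, found in all 20, and by the platelet chemokine gene Ppbp, Nccrp1, Cnfn and the cytokine Il1a. Psca is a gene of the rule, so this only describes how the cells differ among themselves. Ltf reached its highest level here, 32202 CPM, and Krt19 was at 8892 CPM, while Krt8 was at 133 CPM in 4 cells and Lyz2 at 0. By the same criteria it held 6 of the 9 YAP target genes in at least 20% of its cells, Ccn2, Amotl2, Lats2, Arhgef17, Gadd45b and Asap1, and 3 of the 15 duct genes. Subset 5, with 17 cells, stood apart from the gland description. Its Ltf was at 15.7 CPM in 3 of 17 cells, and Cxcl17, Dmbt1 and Psca had 0 UMIs. It was led by the chemokine Cxcl14, the growth factor Ptn, 2300002M23Rik at 29551 CPM, the actin-bundling Espn, the ectonucleotidase Entpd2 and the actin-binding Avil. Of 11 taste bud genes 4 were in at least 20% of its cells and all 4 met the criteria, namely Otop1, a proton channel of sour taste cells, Entpd2, Gng13 and Krt20, while Trpm5, the channel of taste transduction, was found in only 1 of the 134 cells. Krt8, Krt18 and Krt19 were found in all 17 cells, but only 1 of the 17 duct genes in at least 20% of its cells, Prom1, was at least 2-fold above the other gland-rule cells. The name gland-rule cells is kept for the whole, since subset 5 lacks Ltf, Cxcl17 and Dmbt1 at the level of the others.

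**Figure D2:**
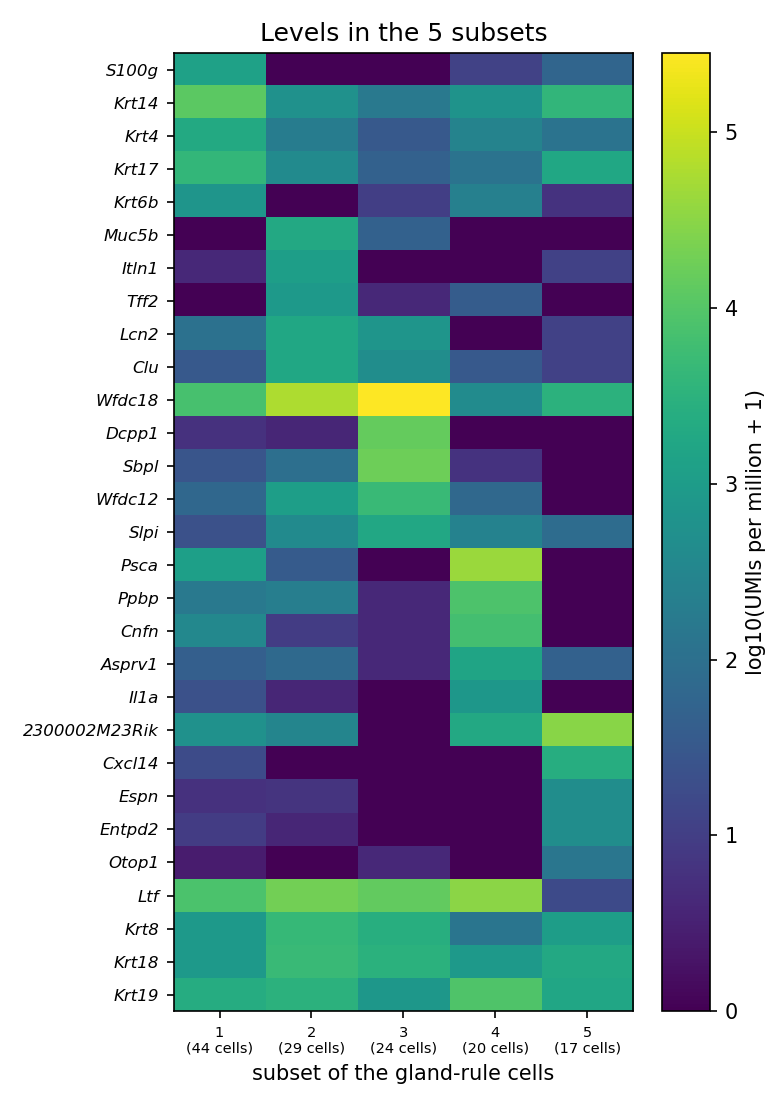
Level of 29 genes, as log10 of CPM plus 1, in the 5 subsets of gland-rule cells, with darker fields lower. Ltf is high in subsets 1 to 4 and at 15.7 CPM in subset 5, and Krt14 is highest in subset 1, at 11999 CPM.

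The subsets were not drawn evenly from the libraries. N2 held 13 of the 20 cells of subset 4 and 15 of the 29 of subset 2, while N1 and E1 held 7 each of the 17 of subset 5. Subset 1 made up 15 of 33 cells in N1, 14 of 34 in E1 and 5 of 38 in N2. Of the 20 cells from YAP libraries, 9 were in subset 3, 6 in subset 1, 2 in each of subsets 2 and 5, and 1 in subset 4. The 114 cells without the YAP transgene held 15 of subset 3 and 19 of subset 4. Cells of a library share its animal and preparation, so these numbers are given without a test, and a difference in levels between libraries below cannot be told apart from a difference in which subsets each library held. At resolution 0.3 the clustering gave 4 subsets and at 0.8 it gave 7, and of the 17 cells of subset 5, 16 and 17 respectively stayed together.

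**Figure D3:**
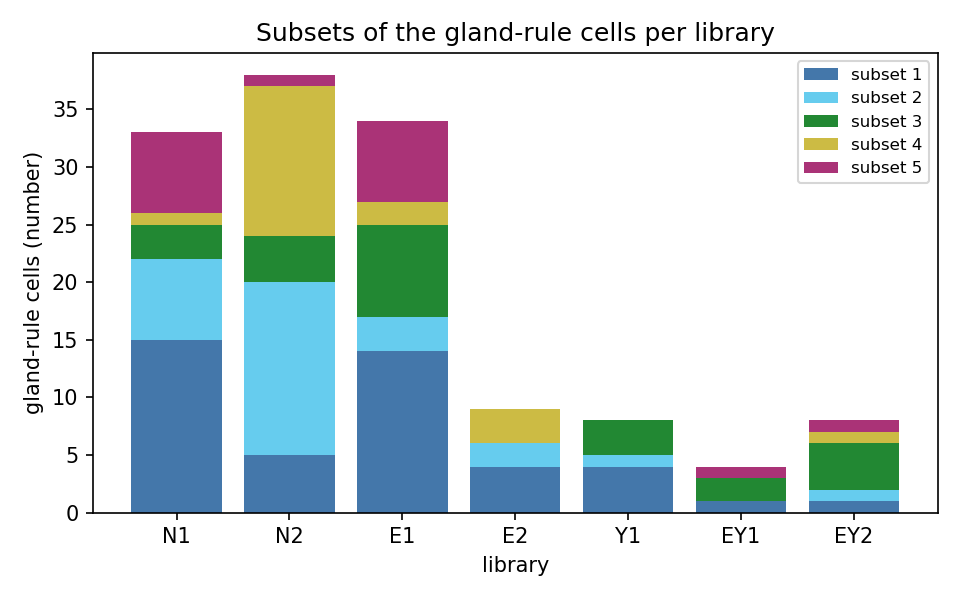
Number of gland-rule cells in each of the 7 libraries that held any, divided by subset. Subset 1 is the largest in N1 and E1, and N2 is largely subsets 2 and 4, and the YAP libraries hold 4 to 8 cells each.

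The share of gland-rule cells among epithelial cells answers whether either transgene went with more or fewer of them. In the N group it was 1.35% (33 of 2445 cells, 95% interval 0.931 to 1.89%, exact by Clopper and Pearson) for the N1 library and 9.90% (38 of 384 cells, 7.10 to 13.3%) for N2. The E group gave 1.09% (34 of 3124 cells) for E1 and 1.94% (9 of 463) for E2. The Y group gave 0.747% (8 of 1071 cells) for Y1 and 0% (0 of 828, which allows a share of up to 0.362% by the floor of 3 counts and 0.445% by the exact interval) for Y2. The EY group gave 3.03% (4 of 132 cells, 0.832 to 7.58%) for EY1 and 0.422% (8 of 1896) for EY2. N2 stood far above the rest and EY1 rested on 4 cells, and the groups with and without the YAP transgene overlapped. The mean share was 1.05% ± 1.36 (SD, n = 4) with the YAP transgene and 3.57% ± 4.23 (SD, n = 4) without, a difference of -2.52 percentage points. A two-sided exact permutation test over all 70 labellings gave p = 0.314, or 0.629 after Benjamini-Hochberg adjustment over the 2 transgenes, where the smallest p possible is 0.0286. The E6-E7 libraries had a mean of 1.62% ± 1.13 (SD, n = 4) against 2.998% ± 4.63 (SD, n = 4), with an exact permutation p of 0.886. Within these limits on genes and UMIs, neither difference in share was thus larger than the spread between libraries.

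N2 decided the size of these values. Without N2 the YAP difference was -0.411 percentage points (exact permutation p = 0.629) and the E6-E7 difference turned to 0.922. With all cells passing the limits as the denominator, the share was lower in every YAP library, 0% to 0.257%, than in every other, 0.592% to 2.05%. There the exact permutation p was 0.0286, the smallest possible, and 0.0571 adjusted, so it did not pass 0.05 after adjustment. That denominator also counts immune cells, which numbered 517 to 1133 in N1, N2, E1 and E2 and 703 to 3428 in the YAP libraries with gland-rule cells. The arms also separated among epithelial cells once the upper limits on genes and UMIs were dropped. The share was then 0.0706% to 0.909% in YAP libraries and 1.08% to 6.09% in the others, with EY1 at 4 of 440 cells. Its exact permutation p was again 0.0286, and 0.0571 adjusted.

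**Figure D4:**
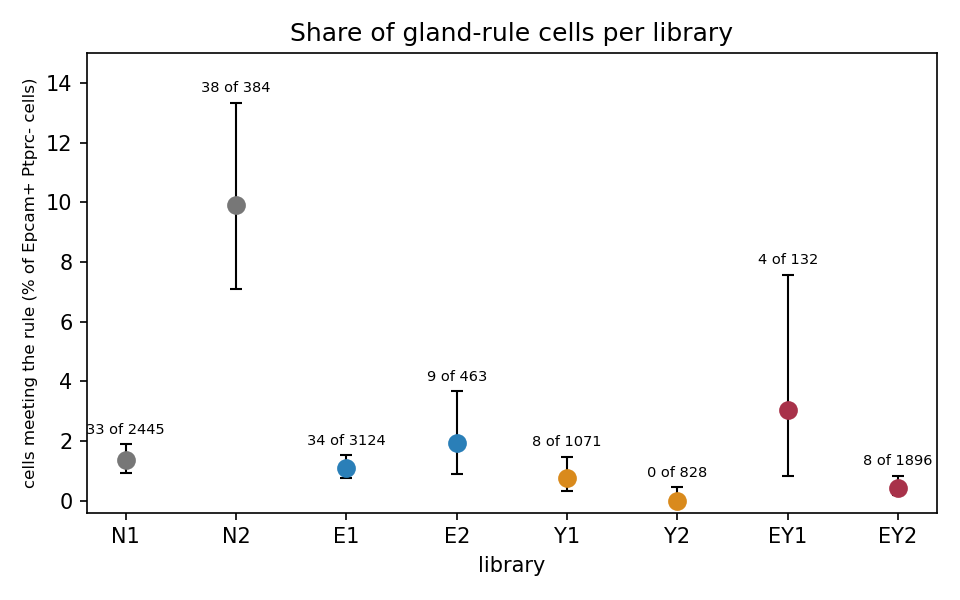
Share of gland-rule cells among epithelial cells in each of the 8 libraries, in percent, with exact 95% binomial intervals and the counts above each point. N2 is at 9.90% and the other 7 libraries are between 0 and 3.03%.

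Yap1, the mouse counterpart of the Y transgene, differed in level between gland-rule cells and other epithelial cells of the YAP libraries. Yap1 (chr9:7931999-8004596, minus strand) was counted on the mouse gene. The study's transgene-specific primers carry a human (hsa) label, and the study read the transgene itself against a separate reference. Whether transgene transcripts also count toward Yap1 in the values used here is not stated. In other epithelial cells its level was 34.2 (N1) and 41.4 (N2) CPM for N, 32.1 (E1) and 49.6 (E2) for E, 212 (Y1) and 459 (Y2) for Y, and 219.7 (EY1) and 168 (EY2) for EY, so each of the 4 YAP libraries was above each of the 4 others. In gland-rule cells it was 18.3 (N1) and 38.9 (N2) CPM for N, 44.3 (E1) and 97.3 (E2) for E, 9.12 (Y1) for Y, and 39.9 (EY1) and 13.999 (EY2) for EY, on 7, 20, 17, 12, 1, 3 and 1 UMIs. Within the limits on genes and UMIs, the gland-rule cells of the YAP libraries did not share that higher level. With their exact Poisson 95% intervals, Y1 was at 9.12 CPM (0.231 to 50.8), EY1 at 39.9 CPM (8.22 to 117) and EY2 at 14.0 CPM (0.354 to 77.998), and each interval ended below the level of the other epithelial cells of its library. The Poisson intervals of Yap1, here and below, cover counting error only and not the spread between cells. Without the upper limits on genes and UMIs, Y1 stood at 84.5 CPM, outside its interval here. Immune cells of the same libraries held Yap1 at 9.31, 7.27 and 16.8 CPM, so the values of Y1 and EY2 were at or below that background.

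Summed over the 3 YAP libraries, 20 gland-rule cells held 5 Yap1 UMIs in 256250 (19.5 CPM, exact Poisson 95% interval 6.34 to 45.5). At the level of the other epithelial cells of their own libraries they would have held 51.8. The 114 gland-rule cells without the YAP transgene held 56 UMIs (39.9 CPM, 30.2 to 51.8), against 52.8 at the level of the other epithelial cells. The log2 ratio of gland-rule to other epithelial cells averaged -3.15 ± 0.81 (SD, n = 3) with the YAP transgene and 0.12 ± 0.71 (SD, n = 4) without, a difference of -3.27. The ratios of the 2 arms did not overlap, and the two-sided exact permutation p was 0.0571, the smallest that 35 labellings of 3 against 4 allow. Without the upper limits on genes and UMIs, Y2 also held a gland-rule cell, and the difference was -3.32 with an exact permutation p of 0.0286, the smallest for 70 labellings. There Y1 rose to 27 Yap1 UMIs (84.5 CPM, exact Poisson 95% interval 55.7 to 123) and a ratio of -1.28. The single Y2 cell, with 0 UMIs, stood at -6.54, and the SD with the transgene was 2.28. The other epithelial cells kept the upper limits in this setting, so the 2 classes were chosen by unlike limits. The level in gland-rule cells alone differed by -1.06 on the log2 scale between the arms (exact permutation p = 0.171), and that in other epithelial cells by 2.22 (exact permutation p = 0.0571).

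Krt14, whose promoter drives the Cre, was read in the same cells. Subset 1, which held most of the Krt14 transcripts, had 6 cells in the YAP libraries. They held 756 Krt14 UMIs, or 11103 CPM, close to the 12113 CPM of the 38 cells of that subset without the YAP transgene. They held 2 Yap1 UMIs (29.4 CPM, exact Poisson 95% interval 3.56 to 106), where the level of other epithelial cells would have given 14.3. Subset 5 had 2 cells in the YAP libraries, at 11524 CPM of Krt14, and each held 1 Yap1 UMI (53.1 CPM), against 1 UMI in 15 cells without the transgene (6.54 CPM). Counts this small set no order between the subsets. The share of cells that recombined was not measured here.

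**Figure D5:**
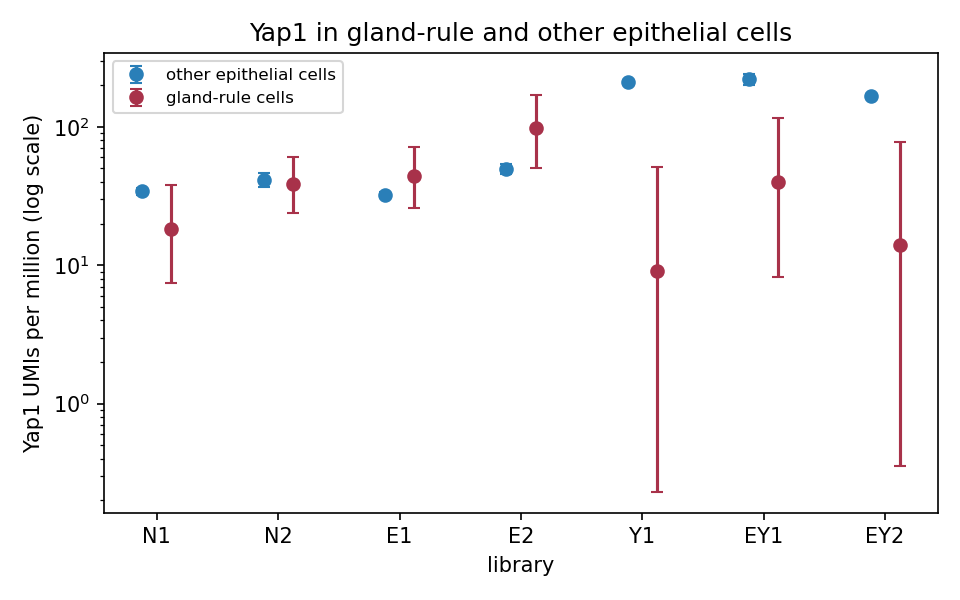
Yap1 level in CPM, on a log scale, in gland-rule cells and in other epithelial cells of the 7 libraries that held gland-rule cells, with exact Poisson 95% intervals. The intervals cover counting error only. Other epithelial cells of Y1, EY1 and EY2 are at 168 to 220 CPM, and the gland-rule cells of the same libraries are at 9.12 to 39.9 CPM.

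Gene-by-gene tests used edgeR's quasi-likelihood test on UMIs summed per library. The planned tests needed at least 20 gland-rule cells per library, which only N1, N2 and E1 held, so the YAP effect and EY against N could not be tested as planned. Fits with libraries of at least 4 cells were added after seeing the data. They rest on 4 to 9 cells in each of E2, Y1, EY1 and EY2, these small sums share one estimate of the spread with the large ones, and their p-values may be too small.

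In that fit over 7 libraries, the YAP transgene went with 1 called gene of 2037 tested, a share of 0.0491%, at a Benjamini-Hochberg adjusted p under 0.05, and 125 genes had an unadjusted p under 0.05. The gene was S100g, which led subset 1 (chrX:162961992-162964599, minus strand). Its level was 202 (N1) and 175 (N2) CPM for N, 1268 (E1) and 1127 (E2) for E, 0 (Y1) for Y, and 0 (EY1) and 0 (EY2) for EY. Every library without the YAP transgene held it and no YAP library did. Against a floor of 3 counts over the YAP libraries' gland-rule cells, S100g was 48.2-fold lower with the YAP transgene (edgeR quasi-likelihood adjusted p = 0.0183). That floor takes no account of UMIs that come together in a cell, so it is not a lower bound. In N2, 1 cell held 89 of the 90 S100g UMIs. The S100g UMIs came from 23 cells, 18 of them in subset 1, where 18 of 38 cells without the YAP transgene held it and 0 of 6 with it. Across 13 alternatives the edgeR call was lost in 5. Its adjusted p was 0.22 and 0.992 for cells chosen with at least 3 and at least 5 rule genes. It was 0.088 without N2, 0.0971 without E1 and 0.0565 without Y1.

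The other genes of lowest p are given as values, since none passed. S100a8, a calcium-binding antimicrobial protein of neutrophils and stressed epithelium, was at 0 (N1) and 7.77 (N2) CPM for N, 7.82 (E1) and 16.2 (E2) for E, 255 (Y1) for Y, and 279 (EY1) and 182 (EY2) for EY, and no YAP library overlapped the others (log2 difference 5.28, SE 0.67, edgeR adjusted p = 0.0648). In Y1 1 cell held 21 of the 28 S100a8 UMIs, against 7 of 21 in EY1 and 3 of 13 in EY2. Other epithelial cells carried S100a8 in 52.9% (Y1), 100% (EY1) and 85.3% (EY2), against 1.30% to 16.7% in N1, N2, E1 and E2. Immune cells of Y1, EY1 and EY2 held S100a8 at 11102, 72877 and 62222 CPM, against 44.4 to 1879 CPM in those of the 4 other libraries. The part of that background in the gland-rule value was not tested. Its partner S100a9 had a log2 difference of 2.94, Pglyrp1 of 1.80, Wfdc12 of 3.64 and the rule gene Dmbt1 of 1.90, with edgeR adjusted p-values of 0.642, 0.703, 0.71 and 0.235. In the other direction stood the cornified envelope gene Sprr1a (-6.07), the wound keratin Krt6b (-3.81), the protease Prss27 (-4.91) and the autophagy gene Map1lc3a (-1.55), with edgeR adjusted p-values of 0.13 to 0.72. Ltf differed by -0.10 (SE 0.47) and Krt14 by 0.10 (SE 0.31), so a difference was not detectable for either. Apart from S100g, which is in none of the lists, no list held a called gene. The duct list had a median log2 difference of -0.10 over 17 genes, the defence list 1.57 over 10 and the suprabasal list -1.50 over 8, beside -0.05 over all 2037.

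Whether gland-rule cells responded to the YAP transgene as other epithelial cells did was asked with a model that set both classes of each library side by side. Its class-by-YAP term was called for 135 of 10532 genes, or 1.28%, with 9 in which the response was more positive in gland-rule cells (0.0855%) and 126 in which it was more negative (1.2%). The count was 23 for cells with at least 3 rule genes and 60 to 316 with 1 library left out, lowest without EY2 and highest without N1, 78 without E2 and 85 without Y1. The median over all tested genes was -0.34 on the log2 scale with TMM scaling, -0.11 with relative log expression factors and -0.04 with DESeq2, so part of the lean toward lower values moved with the scaling. The split was 9 to 126 with TMM and 11 to 55 of 66 called with DESeq2. For 101 of the 135 the gland-rule to other ratio did not overlap between arms. The same contrast chose these genes and the share over all tested genes is not given here, so this count adds no support. Of the 126, 30 had 3 or fewer UMIs in the gland-rule cells of YAP libraries. Yap1 was called, with a log2 term of -3.71 (SE 0.605, edgeR quasi-likelihood adjusted p = 0.000655), and remained called in all 13 alternatives.

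The calls are described by the lists, beginning with the duct genes. Krt18 was at 1855 (N1) and 2778 (N2) CPM for N, 2655 (E1) and 1467 (E2) for E, 1944 (Y1) for Y, and 1981 (EY1) and 1764 (EY2) for EY in gland-rule cells, with YAP libraries inside the range of the others. In other epithelial cells it was at 13.4 (N1) and 19.2 (N2) CPM for N, 15.4 (E1) and 14.9 (E2) for E, 15.2 (Y1) and 8.61 (Y2) for Y, and 211 (EY1) and 78.6 (EY2) for EY. The more negative term of Krt18 (-1.97, edgeR adjusted p = 0.0319) thus stood beside a higher level in the other epithelial cells of EY1 and EY2, while those of Y1 and Y2 were within or below the range of N and E. Krt8 (-3.18), Krt19 (-4.25) and Cldn4 (-4.58) were also among the duct genes called, 5 of 18 tested and all negative. Of 13 cytokines and chemokines tested 7 were called, all negative, namely Cxcl2, Cxcl3, Cxcl5, Cxcl16, Il1a, Il33 and Tnf. The defence genes Lcn2, Slpi, Bpifb1 and Pglyrp1 were called negative of 12, the suprabasal genes Krt13, Krt4, Sprr1a and Sbsn of 16, the YAP targets Amotl2, Gadd45b and F3 of 18, and the hypoxia genes Egln3 and Ndrg1 of 10. A negative term is a response below that of other epithelial cells and need not be a fall in gland-rule cells. The YAP libraries supplied 256250 gland-rule UMIs and the others 1402818. By gene, the YAP libraries held 376 of 801 UMIs for Slpi, 295 of 1095 for Pglyrp1, 45 of 934 for Lcn2 and 5 of 949 for Bpifb1. A single N1 cell held 98.7% of the Bpifb1 UMIs. Of the mucous genes Tff2 and Agr2 were called positive of 13, with 76.025% of the Tff2 UMIs in 1 cell. No basal keratinocyte gene of 10, transcription factor of 17, G1/S gene of 19 or G2/M gene of 14 was called.

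The 5 largest responses in each direction among those without overlap are named. The rule genes Wfdc18 (2.56, one of these 5), Psca and Krt7 are among the 135 calls, but they chose the cells, so their terms are a description only. Also on the positive side stood the actin-linked membrane protein gene Clmn (2.69), the phospholipase gene Gdpd1 (2.55), Tent5a, a poly(A) polymerase of secretory cells (2.02), and the interferon-induced Ifi27l2a (1.99). Clmn was at 75.996 (N1) and 75.8 (N2) CPM for N, 67.8 (E1) and 56.7 (E2) for E, 137 (Y1) for Y, and 66.5 (EY1) and 69.996 (EY2) for EY in gland-rule cells and at 5.56 (N1) and 6.79 (N2) CPM for N, 5.23 (E1) and 5.35 (E2) for E, 2.87 (Y1) and 3.30 (Y2) for Y, and 0.495 (EY1) and 0.398 (EY2) for EY in other epithelial cells. The YAP libraries were thus alike or somewhat higher in gland-rule cells and lower in the others. On the negative side stood the beta-defensin Defb14, Mab21l4, Nccrp1, Il1a and S100g, all with 0 UMIs in gland-rule cells of YAP libraries. Without the transgene the gland-rule cells held 20, 53, 193, 155 and 792 UMIs of them. Against the floor of 3 counts these levels were 1.22-fold, 3.23-fold, 11.8-fold, 9.44-fold and 48.2-fold lower. That floor takes no account of UMIs that come together in a cell, so these folds are not lower bounds. With 1 library of 7 left out, Clmn, Defb14 and Ifi27l2a were still called in 3 fits, Tent5a in 2, Gdpd1 in 4, Mab21l4 in 5, Il1a and Wfdc18 in 6, and Nccrp1 and S100g in 7. Without EY2 the calls of Clmn, Gdpd1, Tent5a, Ifi27l2a, Defb14, Mab21l4, Il1a and Wfdc18 were lost. Without Y1 or E2 those of Clmn, Gdpd1, Tent5a, Ifi27l2a and Defb14 were lost, and that of Mab21l4 without Y1. Without E1 those of Clmn, Tent5a, Ifi27l2a and Defb14 were lost, and without EY1 that of Tent5a. Nccrp1 and Il1a led subset 4, of which the YAP libraries held 1 cell, so this difference cannot be told apart from the makeup of the subsets.

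The E6-E7 transgene gave no call in gland-rule cells. In the planned fit, with E1 against N1 and N2 and 1 residual degree of freedom, edgeR's quasi-likelihood test called 0 of 5900 genes (0%), with 130 at an unadjusted p under 0.05, while DESeq2 called 12. Simulated counts of this design had a fixed dispersion of 0.1 and changed only genes over 50 CPM. On them the test recovered 27.3% of 4-fold and 96% of 16-fold changes, so moderate changes were not detectable. Whether the real sums vary more was not tested. In the real fit Hist1h1b, with a log2 difference of 5.57, was not called, so the absence of calls does not exclude large changes. The lowest p in each direction belonged to Hist1h1b (5.24 (N1) and 1.94 (N2) CPM for N and 183 (E1) for E), of which 1 E1 cell held 75.7% of the UMIs, and to Dcpp3, with 0 UMIs in E1. Next came the protease gene Klk8 (log2 3.56), the growth factor Areg (3.03), the metallothionein Mt3 (4.22) and the mitotic gene Ube2c (3.29) as higher in E1. Sprr2a3, Colec12, AW112010 (-3.67) and the secretoglobin Scgb3a1 (-3.70) were lower, with 0 UMIs in E1 for the former pair, and the edgeR adjusted p-values of all 10 were 0.537 or more. Ltf was at 10011 (N1) and 19535 (N2) CPM for N and 8299.7 (E1) for E and differed by -0.93 (SE 1.06), and Yap1 differed by 0.50 (SE 0.67), neither beyond the spread. The duct list had a median log2 difference of -0.28 over 18 genes, the mucous list -3.41 over 9 and all genes -0.02. The E6-E7 response against that of other epithelial cells was called for 0 of 12858 genes (0%), with 329 at an unadjusted p under 0.05, and by DESeq2 for 10. Its lowest p-values included Hist1h1b again, S100g (3.54), AW112010 (-4.91) and the retinaldehyde dehydrogenase Aldh1a3 (-4.22), with an edgeR adjusted p of 0.231 or more.

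EY against N, the pair with both transgenes against neither, was fitted on libraries with at least 4 cells only. edgeR's quasi-likelihood test called 0 of 2689 genes (0%), with 157 at an unadjusted p under 0.05, and DESeq2 called 8. Among the lowest p-values were those of S100a8 (log2 5.83), S100a9 (4.26), the peptide transporter Tap1 (2.35), and Ifi27l2a (3.20) on the higher side. On the lower side stood S100g, Krt6b and Ttc36 with 0 UMIs in EY, Sprr1a (-5.06) and Nipal2 (-3.66), and the edgeR adjusted p-values of those named were 0.368 or more. These EY sums rest on 12 cells, and the EY and N libraries also enter the YAP effect above, so the 2 comparisons are not independent.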

How the data were processed

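Single-cell suspensions of mouse tongue epithelium were profiled with 10x 3' chemistry, 1 matrix per library and 8 in all. The authors deposited UMI counts per gene and barcode, not normalized, made by aligning reads to mm10 with Cell Ranger, version 5.0.0 per the file headers. These counts of 3' ends do not scale with gene length. UMIs were summed per library over gland-rule cells and over other epithelial cells, and libraries, not cells, were the replicates. Nothing in the labels ties libraries to batches, and where separate animals are not stated the p-values measure the spread between these libraries.

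The methods of the study give no test between libraries for single cells, so the factorial design of the labels was used. edgeR 4.0.16 (R 4.3.3) quasi-likelihood tests used filterByExpr, TMM scaling and Benjamini-Hochberg adjustment at 0.05, with YAP and E6-E7 as additive terms. DESeq2 1.42.0, relative log expression factors, no filter, other rule counts and left-out libraries were the alternatives. A planned minimum of 10 cells kept the same 3 libraries as 20. On simulated counts the fits with at least 4 cells recovered 86.4% of 4-fold changes for the YAP effect and 46% for the class-by-YAP term. Those counts had a fixed spread between libraries (dispersion 0.1) and changed only genes over 50 CPM. Whether the real sums of few cells vary more was not tested, so recovery in the real data may be lower. Shares and Yap1 ratios were tested by exact permutation of libraries. Clusters came from scanpy 1.11.5 (2000 variable genes, 20 components, 15 neighbours, Leiden resolution 0.5).

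The members and all gene lists were chosen with earlier results of these data known. Genes were named by rank among called genes at 20 CPM or more without overlap between arms, or by the lowest p where fewer than 3 were called. For gland-rule against other epithelial cells they were named by the largest median ratio at 50 CPM or more. Gene bounds came from GENCODE vM21, in which 32158 of 32285 features were found by identifier. Some genes that met these rules are not reported here.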

Additional observations from a re-analysis of the deposited data

Results flagged for a closer look

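The share of gland-rule cells in N2, 9.90% of 384 epithelial cells, lay far from its fellows in both ways of pooling the libraries. Among the 4 libraries without the YAP transgene its gap to the nearest, divided by the range, was 0.903, and among the 4 without E6-E7 it was 0.864, both above Dixon's 95% critical value for 4 samples. Chance alone would set apart about 1 such group in 20 (5%). N2 had 384 epithelial cells among 1850 passing the limits, and N1 had 2445 among 4240.

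The response of Yap1 to the YAP transgene differed between gland-rule cells and other epithelial cells, with a log2 term of -3.71 (SE 0.605, edgeR quasi-likelihood adjusted p = 0.000655). The gland-rule to other ratio was lower in 3 of 3 YAP libraries than in each of the 4 others. In all, 135 genes had such a difference, 1.28% of those tested, and the fit was added after seeing the data.

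Barcodes outside the limits on genes, UMIs and mitochondrial share also carried the rule's genes. Of 198 barcodes with at least 4 of them, 57 failed these limits, 36 by mitochondrial share, 8 by too few genes and 18 by the upper limits, with some failing more than 1. In N1 4 of 38 such barcodes failed and in Y1 12 of 21, and the only such barcode of Y2 failed by the upper limits.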

How the results depend on the processing

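The share with the YAP transgene stayed lower than without it under every alternative run, from -3.35 to -0.411 percentage points when 1 library was left out. The E6-E7 difference ranged from -2.38 to 0.922 and turned sign only without N2. For the E6-E7 effect, 0 genes became 12 with DESeq2, 89 without a filter and 47 with at least 5 rule genes, and against other epithelial cells 10, 17 and 21, and 1 with at least 4 cells per library. The YAP effect, with 1 gene, gave 9 with DESeq2, 137 without a filter, 0 with at least 3 and 0 with at least 5 rule genes, and 0 to 5 with 1 library left out. It gave 2 without N1, 0 without N2, E1 or Y1, 5 without E2, and 4 without EY1 or EY2. EY against N, with 0, gave 8 with DESeq2, 84 without a filter and 0 to 2 with 1 library left out, the 2 being without N2. The class-by-YAP count of 135 became 66 with DESeq2, 223 without a filter, 23 with at least 3 rule genes and 60 to 316 with 1 library left out, namely 316 without N1, 78 without E2, 85 without Y1 and 60 without EY2. The cause of these moves was not tested. Fitted log2 values turned sign for Sprr2a3 (0.16, E6-E7 with at least 4 cells), Krt6b (2.22 for YAP and 2.71 for EY against N) and Sprr1a (0.57, EY against N), all with at least 3 rule genes except Sprr2a3. Yap1 in EY against N, which rests on 4 UMIs in EY, was -0.18 without a filter and ran from -0.95 to 0.97 with 1 library left out, at -0.27 without N1. The difference in the Yap1 ratio between arms was -3.32 without upper limits and -3.69 to -2.88 with 1 library left out. Without upper limits the ratio of Y1 was -1.28 and that of the 1 cell of Y2 was -6.54. The number of genes at least 2-fold higher in gland-rule cells was 754, 724 with at least 3 rule genes and 677 with at least 5. Of the other values for single genes, 438 kept their direction and side of the threshold, 71 newly passed it and 42 no longer did.

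No paired analysis was possible because the labels number no replicates and the numbers used here follow accession order. Leaving out a library could not be done for the planned E6-E7 fit, which has 1 residual degree of freedom. Depth limits every level in the YAP libraries, whose gland-rule cells held 256250 UMIs in all. In that sum 1 UMI is 3.90 CPM, but in single libraries it is more, 9.12 CPM in Y1 and 14.0 CPM in EY2.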
